A study of Mus musculus with 670 samples.

Results

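Serpina1a, Serpina1b, Serpina1c, Serpina1d and Serpina1e are the mouse genes for alpha-1 antitrypsin. Their 5 rows, of 55604 gene rows in the table, were taken by symbol and were read both singly and as a sum, because near-identical copies share reads. They were chosen by their levels in these cells and ages, so their levels by age and by cell are given as a description with no test. Of the cells that passed the cell filter 23 held the family, which means that the 5 genes summed to at least 50 CPM (reads scaled to the total of gene reads). All 23 were cells of 2-month mice, where they made up 14.9% of the passing cells.

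Alpha-1 antitrypsin is a secreted serpin, a protease inhibitor that traps its target when the protease cuts an exposed reactive loop and the inhibitor folds around it. Liver cells make most of the protein in blood, where neutrophil elastase is its best known target, and the mouse carries several copies of a gene that is single in humans. Antitrypsin transcripts have also been described in cartilage cells, in which serpins are among the brakes on proteases that degrade the matrix.

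Skeletal stem cells, from which cartilage, bone and marrow stroma can form, were purified by flow cytometry from digested mouse long bones and profiled without culture by SmartSeq2, which covers whole transcripts, with 1 cell in each well. The 670 wells lay on 7 plates and all are labelled male, with no strain, genotype or treatment group named. Postnatal day 3 gave 68 passing cells on plate 9 (batch 3). At 2 months 15, 70 and 69 cells passed on plates 1, 3 and 4 (batches 4, 5 and 1), and at 24 months 5 cells passed on each of plates 2, 5 and 12 (batches 3, 2 and 3). No label names an animal, and the column names carry codes of unknown meaning that differ between some plates and were not used, so an age is a single sample here, nothing is tested, and plates show only how far these plates differ. No batch held 2-month cells together with cells of day 3 or of 24 months. For 2 months against either of those ages, the effects of batch and of age cannot be told apart. Median gene reads per passing cell were 1100488 at day 3, 677688 at 2 months and 2733865 at 24 months. Depth thus differed between the ages, and its part in the levels by age was not tested. The 670 wells carried 670 different index pairs, and 0 wells shared a pair with another plate.

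The 5 genes stand within a single stretch of chromosome 12, all on the minus strand (GENCODE annotation of GRCm38). Serpina1d spans chr12:103763594-103773592, Serpina1a chr12:103853589-103863562, Serpina1c chr12:103894926-103904887 and Serpina1e chr12:103946931-103958975. Serpina1b is annotated at chr12:103728156-103830373, a span that contains Serpina1d, so reads of these neighbours rest on exon sequence alone. Serpina1f, a relative next to them at chr12:103688044-103695529, had 3 reads in all wells and was not part of the sum. Between any pair of copies the coding sequences were 96.3% to 98.5% identical. Over 1239 aligned coding bases 86 positions differed among the 5 copies, and a window of 60 bases held 18 of them, against a median of 4 per window. That window, which encodes part of the reactive loop, is shown because it is where reads tell the copies apart and where the copies differ most. Capitals mark the positions that differ among the copies.
Serpina1a: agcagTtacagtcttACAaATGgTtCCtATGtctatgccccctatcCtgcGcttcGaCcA
Serpina1b: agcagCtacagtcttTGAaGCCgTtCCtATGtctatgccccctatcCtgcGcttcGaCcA
Serpina1c: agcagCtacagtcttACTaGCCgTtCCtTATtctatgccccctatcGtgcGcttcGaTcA
Serpina1d: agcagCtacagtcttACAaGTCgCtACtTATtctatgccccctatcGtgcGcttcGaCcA
Serpina1e: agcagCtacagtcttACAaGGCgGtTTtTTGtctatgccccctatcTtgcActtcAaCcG
The windows are read 5′ to 3′ on the coding strand. They are coding bases 1170 to 1229 of Serpina1a, whose annotated coding sequence is 69 bases longer, and 1101 to 1160 of the others. They lie at chr12:103853757-103853816, chr12:103728324-103728383, chr12:103895094-103895153, chr12:103763762-103763821 and chr12:103947100-103947159, in the order printed, each within 1 exon. Of all 50-base windows of a copy's transcript, 26.7% were unique to Serpina1c, 40.01% to Serpina1a, 51.97% to Serpina1d, 64.4% to Serpina1e and 65.8% to Serpina1b. A low estimate for Serpina1c is therefore the least certain of the 5.

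The 250 bases before the start that RefSeq gives were 92.05% to 97.98% identical between copies, over the bases that aligned. The stretches before Serpina1d, read in the most cells, and Serpina1e, which had 16 reads in all cells, are shown to set the extremes side by side (RefSeq, GRCm38.p6, in which all 5 copies were found). Capitals mark matches on either strand to TGANTCA, the site bound by AP-1, the factor of the Fos and Jun proteins.
Serpina1d: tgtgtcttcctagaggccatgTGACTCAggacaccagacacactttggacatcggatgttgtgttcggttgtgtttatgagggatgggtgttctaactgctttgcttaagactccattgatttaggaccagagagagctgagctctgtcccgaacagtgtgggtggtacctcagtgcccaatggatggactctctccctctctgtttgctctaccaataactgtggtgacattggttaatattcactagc
Serpina1e: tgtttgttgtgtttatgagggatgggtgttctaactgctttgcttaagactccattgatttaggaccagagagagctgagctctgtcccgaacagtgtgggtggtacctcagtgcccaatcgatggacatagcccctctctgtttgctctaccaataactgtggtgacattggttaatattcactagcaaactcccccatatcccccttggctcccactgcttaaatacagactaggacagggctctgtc
The Serpina1d stretch is chr12:103773634-103773883 and the Serpina1e stretch chr12:103956898-103957147, both on the minus strand. TGANTCA occurred before Serpina1a to Serpina1d, against 6.75% of 32851 promoters of the same length. In the Serpina1e stretch TGANTCA had no match, and its RefSeq start lies further downstream in the alignment, so its window begins at another point. For Serpina1b and Serpina1e the RefSeq stretch lies inside the GENCODE span given above, since the annotations place the start differently, and which start these cells used was not tested. ACAAT, the core of the sequence that SOX factors bind, had no match in any of the 5 stretches and was found in 27.7% of promoters.

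At 2 months the summed family averaged 2014 CPM over the plates (SD 1866, n = 3 plates). It stood at 4077 CPM on plate 1, 445 on plate 3 and 1518 on plate 4. The plates thus differed about as much as their mean, and all 3 had family reads. At postnatal day 3 there were 0 family reads among 75456569 gene reads of passing cells, and at 24 months 0 among 43082394. No fold is read as a result, because the family was found in few cells and the number of cells looked at limits the comparison. Within batch 3, the 10 cells of 24 months on plates 2 and 12 and the 68 cells of day 3 on plate 9 alike had 0 reads, so no difference between those ages could be seen.

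Of the single copies at 2 months, Serpina1d stood at 2673, 200 and 358 CPM on plates 1, 3 and 4, and Serpina1a at 1006, 61.4 and 857 CPM. Serpina1b stood at 397.7, 181.8 and 270.5 CPM, the narrowest spread of the 3 copies with many reads. Serpina1c was at 0.049, 2.05 and 32.7 CPM and Serpina1e at no more than 0.29 CPM on any plate. The order of the mean levels was Serpina1d (1077 CPM, SD 1384), Serpina1a (642, SD 508), Serpina1b (283.3, SD 108.5), Serpina1c (11.6, SD 18.3) and Serpina1e (0.16, SD 0.11), each over 3 plates. Neighbours in this order did not differ beyond this spread, apart from Serpina1b and Serpina1c, whose plates did not overlap. Per kilobase of transcript, which allows levels of copies to be compared, the shares of the family were 49.8% for Serpina1d, 34.3% for Serpina1a, 14.8% for Serpina1b, 1.03% for Serpina1c and 0.0084% for Serpina1e over all plates. The order changed between plates. Of family reads, not per length, Serpina1d had 65.6%, 44.9% and 23.6% on plates 1, 3 and 4, Serpina1a 24.7%, 13.8% and 56.4%, and Serpina1b 9.75%, 40.9% and 17.8%, so that Serpina1a led on plate 4.

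In single cells the family was either well above the threshold or at 0 or 1 read. The cells that held it numbered 4 of 15 on plate 1 (26.7%, exact 95% interval 7.79% to 55.1%), 10 of 70 on plate 3 (14.3%, 7.07% to 24.7%) and 9 of 69 on plate 4 (13.04%, 6.14% to 23.3%). At day 3 it was held by 0 of 68 cells, which allows a share of up to 4.41%, and at 24 months by 0 of 15, which allows up to 20%. Each limit for a count of 0, here and below, is 3 over the number of cells. The upper bounds of the exact 95% intervals were 5.28% at day 3 and 21.8% at 24 months. The limit at 24 months lies above the share of 14.9% at 2 months, so a difference between these ages was not detectable with 15 cells. These intervals and limits cover counting error only, since reads are amplified copies and the animals behind the cells are not named. Thinning every cell to 50000 reads and asking for 1 family read left 14.9%, the same share, at 2 months. Of the other cells of 2 months, 2 had 1 family read each, the higher of them at 1.31 CPM, and the rest had 0. The lowest cell above the threshold had 180.97 CPM, so the threshold of 50 CPM fell in an empty range.

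Among the 23 cells the family ranged from 180.97 CPM over a median of 2716 CPM to 34509 CPM, and 16 of them exceeded 1000 CPM. The highest cell, on plate 4, had 48436 family reads, 26.6% of the 182219 reads of all 23. Plate 1 held 4 cells of 3483 to 13010 CPM and none below, whereas plates 3 and 4 ran from 283.2 to 11313 CPM and from 180.97 to 34509 CPM.

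**Figure D1:**
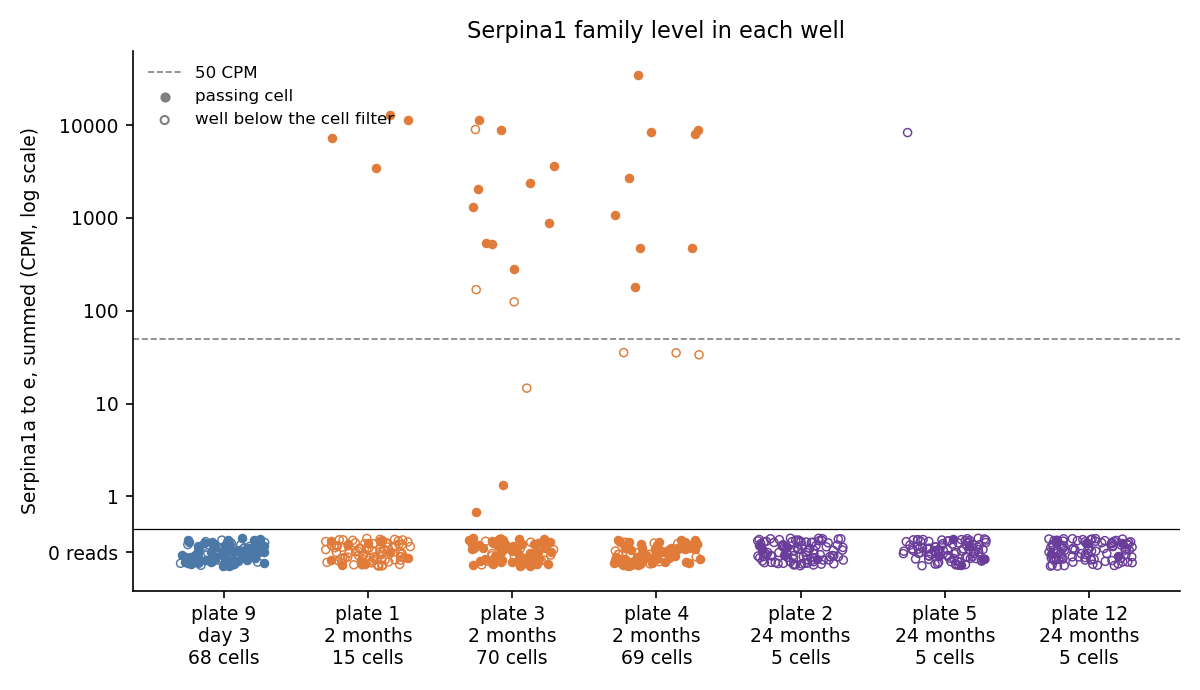
Summed level of the 5 Serpina1 genes in each well (CPM, log scale, with wells of 0 reads in a band below the axis break), by plate and age. Filled points are passing cells and open points wells below the cell filter; cells at 2 months lie either at 0 or 1 read or at 180.97 CPM and above, and the open point at 24 months stands at 8332 CPM.

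Of 433 wells below the cell filter 4 reached 50 CPM of the family, among them 1 of 24 months. The 24-month well, on plate 5, had 4641 family reads of 556988 gene reads, or 8332 CPM, which only 7 of the 23 cells of 2 months exceeded. It had 721 genes, under the minimum of 1000, and 36.3% of its reads came from spike-in RNA. The other 95 wells of plate 5 had 0 family reads. Its family reads were 52.3% Serpina1d, 47.6% Serpina1a and 0.15% Serpina1b, the copies that also led at 2 months. Its most abundant gene was Col2a1, the main collagen of cartilage, at 40374 CPM, and it held reads of 15 of the 20 cartilage genes, among them Acan (6210 CPM), Ucma (6546 CPM) and Sox9 (790 CPM). It had 7611 CPM of Fxyd2, a subunit that tunes the sodium pump, and 21.5 CPM of Cnmd. It had 0 reads of all 16 liver genes, all 14 blood and marrow genes and all 8 endothelial and mural genes. Of the 65 wells of 24 months with at least 500 genes, 8 had Col2a1 and 3 had Acan at 50 CPM or more, and this well alone had Fxyd2 at that level. With these wells included, the 24-month level was 53.6 CPM, against 1317 CPM at 2 months.

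The copies were mixed differently from cell to cell. Serpina1d had the most reads in 12 of the 23 cells, Serpina1a in 6 and Serpina1b in 5, and Serpina1c and Serpina1e led in 0. At least 5% of a cell's family reads came from 1 copy alone in 7 cells, from 2 copies in 8, from 3 in 7 and from 4 in 1. The highest cell was 68.9% Serpina1a and 17.6% Serpina1d, and the next, on plate 1 at 13010 CPM, was 70.2% Serpina1d and 19.7% Serpina1a. In 6 cells all reads fell to a single copy, which was Serpina1d in the 4 cells of 1315, 529, 469 and 180.97 CPM and Serpina1b in those of 1088 and 888 CPM. A cell of 542 CPM was 97.2% Serpina1a. Cells of 1 copy were thus found among the lower levels, from 95 to 1324 family reads, while each cell above 1315 CPM had 2 or more copies at 5%. In 6 cells the estimates of every copy were whole numbers, and in the others reads had been divided between copies. Serpina1c reached 11.6% in 1 cell and 5% or more in 3, and Serpina1e made up 8.11% of the 74 reads of a single cell.

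**Figure D2:**
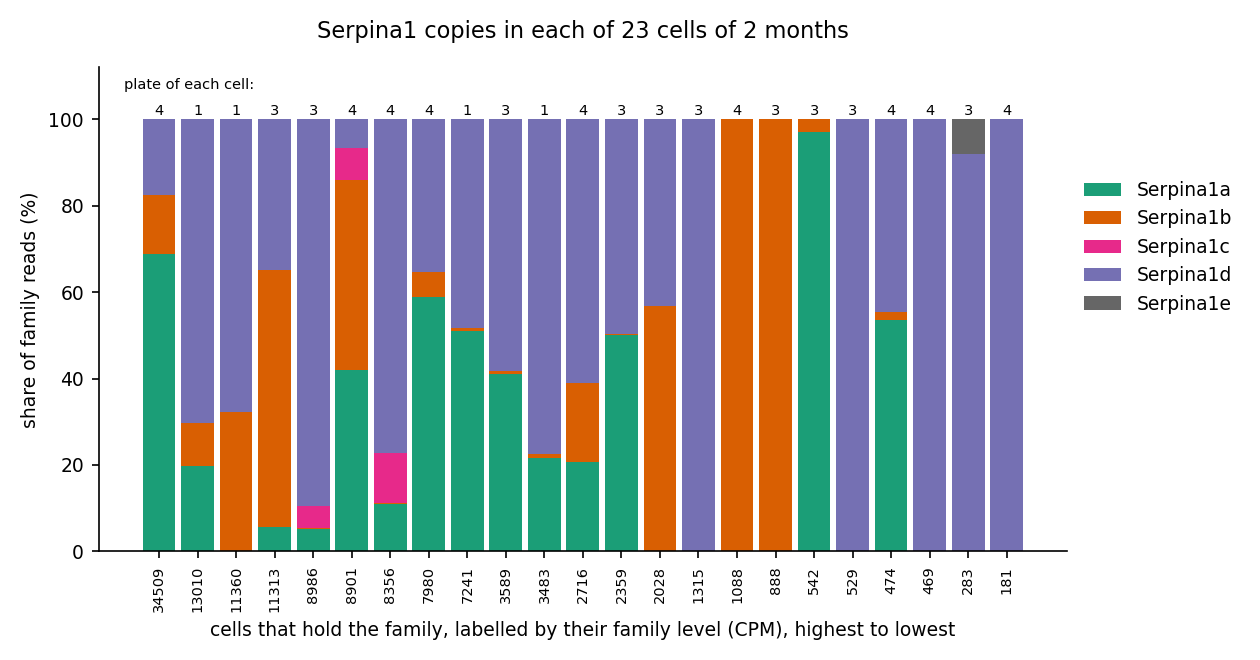
Share of family reads (%) given to each Serpina1 copy in the 23 cells of 2 months, ordered from the highest to the lowest family level (CPM, under each bar), with the plate above each bar. Serpina1d leads in 12 cells, and the bars of 1 copy alone stand among the lower levels on the right.

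Cells that held the family carried the main markers of cartilage. All 23 had Col2a1 and Sox9, the master transcription factor of chondrocytes, at 50 CPM or more. Of the 23, 22 had Acan, the gene of aggrecan, and 22 had Cnmd, the gene of the cartilage glycoprotein chondromodulin. Likewise 22 had Chad, which encodes chondroadherin, and 22 had Comp, a cartilage oligomeric matrix gene. These markers were common in the other cells of 2 months too. Counting any read, Sox9, Chad and Comp were each found in 83.2% of the other cells and Col2a1 in 82.4%. Acan was read in 77.9% of them and Cnmd in 67.9%. Each of these markers was read in 100% of the 23 cells. Looked at from the other side, 21.6% of the cells of 2 months with Cnmd held the family (22 cells, 14.04% to 30.8%), and 1 of 52 cells without it (1.92%, 0.049% to 10.3%). Of the 29 cells with Col1a1, the main collagen of bone, 0 held it, which allows a share of up to 10.3%. Cnmd itself was present at day 3, where 0 of 42 such cells held the family (up to 7.14%). Thus cartilage cells of both ages were sampled, and reads of the family were found in those of 2 months. At 24 months 0 of 15 passing cells had Cnmd at that level, so the family could not be looked for in such cells.

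Over all cells of 2 months, the share that held the family also differed by other genes at 50 CPM. These splits use the same cells as the folds and the likeness below, where Notum and Fxyd2 lead in likeness. They are therefore no separate support for those results. The intervals cover counting error only, and cells are not replicates. The family was held by 18 of 47 cells with Fxyd2 (38.3%, 24.5% to 53.6%) and 5 of those without it (4.67%, 1.53% to 10.6%). It was held by 13 of 34 cells with Notum, an enzyme that removes a lipid from Wnt proteins and so blocks them (38.2%, 22.2% to 56.4%), and by 10 of those without (8.33%, 4.07% to 14.8%). For Runx2, the transcription factor of bone and of maturing cartilage, the shares were 32.4% with it and 10% without it, and for Matn3, a cartilage matrilin, 24.6% and 7.06%. For Prg4, the lubricin gene of the joint surface, they ran the other way at 7.89% with it and 17.2% without it, with overlapping intervals (1.66% to 21.4% and 10.9% to 25.4%). For Cd200, a surface protein, the intervals also overlapped at 11.1% and 16.1%. Within the cells with Cnmd, a restriction chosen after seeing the data, 18 of 42 cells with Fxyd2 held the family (42.9%, 27.7% to 59.04%) and 4 of 60 without it (6.67%, 1.85% to 16.2%). There the shares were 40.6% with Notum and 12.9% without it, with intervals that did not overlap (23.7% to 59.4% and 6.05% to 23.01%), and 44% with Runx2 and 14.3% without it, which did not overlap either (24.4% to 65.1% and 7.35% to 24.1%). For Matn3 the intervals within these cells overlapped at 24.2% with it and 16.7% without it.

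The cells that held the family were then set against the other cells of 2 months, summed by plate (4, 10 and 9 cells against 11, 60 and 60 on plates 1, 3 and 4). A gene counted as higher or lower when the means over 3 plates, each with 10 CPM added, differed at least 2-fold, the higher reached 20 CPM and all plates went the same way. Of 7035 genes with 20 CPM in either state, 292 were higher (4.15%) and 1006 lower (14.3%). The median log2 fold of all 7035 was 0.05. Of the 2141 read in at least 25% of the cells of the higher state, from which named genes were taken, 9.29% were higher and 8.08% lower. Notum was at 477, 1566 and 1258 CPM in cells that held the family on plates 1, 3 and 4, against 36.8, 155.6 and 218.4 CPM in the other cells, and no plate of the first lay below any of the second. Its log2 fold was 2.92, and 56.5% of cells that held the family had a read of it, against 20.6% of the others. Fxyd2 stood at 786, 375 and 745 CPM against 13.8, 120.5 and 276.1 CPM (log2 fold 2.14), in 78.3% against 25.95% of cells, again with no overlap. Ppp1r1b, which encodes the phosphatase inhibitor DARPP-32, stood at 1909, 615 and 1241 CPM against 14.6, 266.7 and 436 CPM (log2 fold 2.34).

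Among the 12 genes of highest fold read in at least 25% of the 23 cells, Notum differed most on the plate where it differed least (log2 fold 2.47). Rspo4 encodes an R-spondin, which strengthens Wnt signals, and was at 213.7 CPM in cells that held the family, against 19.7 CPM in the others. Alg11, a mannosyltransferase that builds the sugar chains of secreted proteins, was at 259.05 against 18.4 CPM. Itpr2, a calcium release channel, was at 437 against 51.6 CPM, and Lrp10, a receptor of the LDL receptor group, at 409 against 65.1 CPM. Gpatch8, the ribosome assembly gene Wdr12 and Gak, a kinase of clathrin uncoating, stood at 216.9, 140.6 and 102.3 CPM against 25.9, 8.92 and 4.69 CPM. Izumo4, 1500011B03Rik and the predicted genes Gm15844 and Gm8893 had lower levels of 83.9, 112.4, 200.4 and 87.4 CPM, against 5.01, 12.2, 2.92 and 0.13 CPM. Each of these was read in 26.1% to 60.9% of the 23 cells, and the log2 folds ran from 2.46 (1500011B03Rik) to 4.03 (Gm15844). On the plate with the smallest difference the log2 folds were 0.018 for Gm8893, 0.12 for Lrp10 and 0.29 for Itpr2. They were 0.33 for Gpatch8, 0.40 for Rspo4 and 0.47 for Gm15844, so the calls of these genes rest on the other plates. On plate 1 Rspo4 was at 491 against 0.18 CPM and Itpr2 at 894 against 0.73 CPM. Without plate 4 Gm8893 no longer met the rule, and without plate 3 Gpatch8 did not. Within cells with Cnmd neither Gm8893 nor Itpr2 met it, and Itpr2 also failed it when holding the family meant 500 CPM.

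Among lower genes the fold of Col1a1 was the lowest. It was at 0, 1.35 and 0.66 CPM in cells that held the family, against 30597, 830 and 5125 CPM in the others, a log2 fold of -10.16. Its partner chain Col1a2 was at 423 against 11580 CPM. Pcolce, the enhancer of collagen propeptide removal, was at 70.9 against 994 CPM, and Sgms2, a sphingomyelin synthase, at 14.2 against 819 CPM. The table holds a second row of identical values for that gene, Sgms2_2. Anxa7 (0.44 against 216.3 CPM), Sorbs2 (13.9 against 378) and Ptprs, a receptor phosphatase (2.21 against 141.6), completed the named genes of lowest fold. Depth moved with the state on plate 1, where median gene reads were 2607390 in cells that held the family, against 150089 in the others. On plate 3 it ran the other way (434430 against 835629) and on plate 4 it was 805735 against 625026. The part of depth in these calls was not tested.

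**Figure D3:**
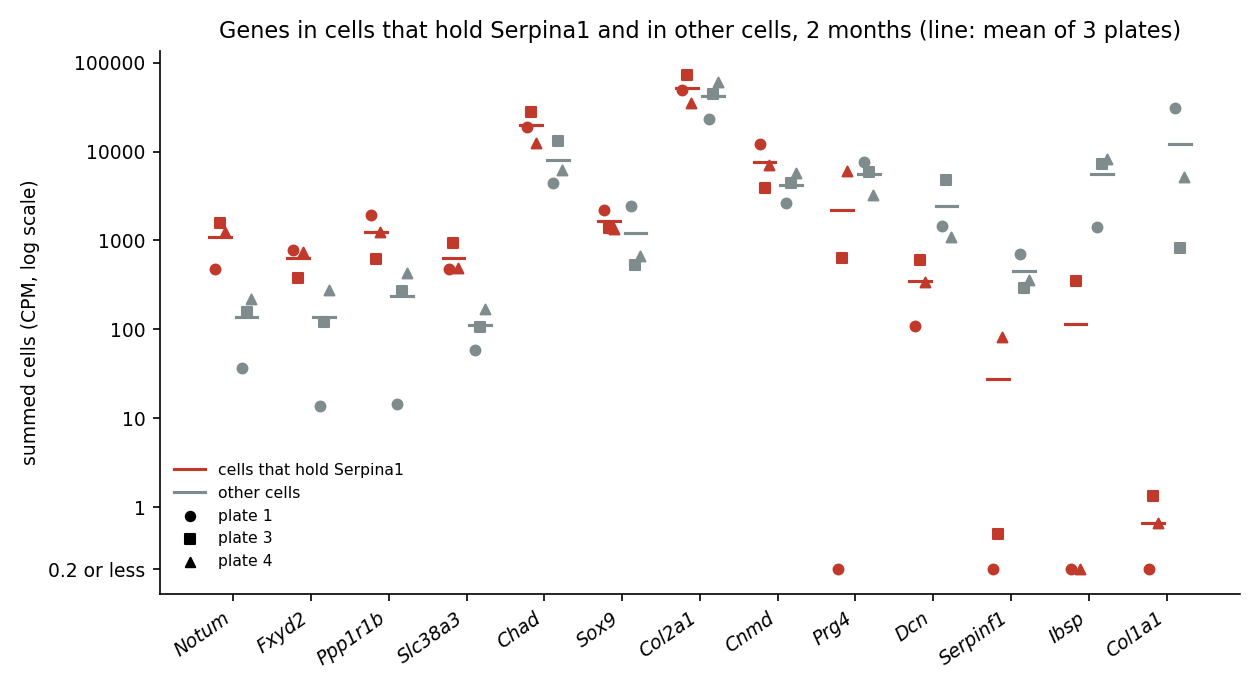
Level (CPM of summed cells, log scale) of 13 genes in cells that hold Serpina1 (red, left of each pair) and in other cells (grey, right) of 2 months, with 1 point per plate and a line at the mean of 3 plates. Notum, Fxyd2, Ppp1r1b and Slc38a3 are higher in the red points on each plate and Col1a1, Ibsp and Dcn lower, whereas Col2a1, Cnmd, Sox9 and Prg4 overlap.

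Counts by list stand beside 4.15% of all genes higher and 14.3% lower. Of 20 genes of resting and proliferating cartilage, 3 were higher and 0 lower in cells that held the family (median log2 fold 0.37). They were Chad (19718 against 7974 CPM), the collagen IX gene Col9a2 (3575 against 1484 CPM) and Hapln1, the link protein of aggrecan (768 against 339 CPM). With TMM scaling none of these met the rule, and without plate 1 Col9a2 and Hapln1 did not. Sox9 (1640 against 1213 CPM), Col2a1 (52171 against 42465 CPM) and Comp (8905 against 8614 CPM) did not meet the rule. Of 11 genes of prehypertrophic and hypertrophic cartilage, 1 was higher, the amino acid transporter Slc38a3 (632 against 111.1 CPM). In that list 4 were lower, namely Spp1 (601 against 7206 CPM), the bone sialoprotein Ibsp (115.9 against 5640 CPM), the collagenase Mmp13 (0.13 against 538 CPM) and the transcription factor Mef2c (22.3 against 106.7 CPM). Yet Spp1 was read in 47.8% of cells that held the family, against 30.5% of the others, and failed the rule with the mean of single-cell CPM. Ibsp, Mmp13 and Mef2c were read in a smaller share of cells that held the family. Pth1r, the receptor of parathyroid hormone, stood at 1342 against 465 CPM without meeting the rule, since plate 4 went the other way (776 against 1013 CPM).

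Of 6 articular genes 5 were lower (median -2.28), among them Cilp, a matrix protein of joint cartilage, at 425 against 2260 CPM. Prg4 was not among them, at 0, 641 and 5969 CPM against 7696, 5848 and 3269 CPM. Cilp was read in 30.4% of cells that held the family, against 22.1% of the others. For Cilp2, Erg, Thbs4 and Creb5 the share was smaller in cells that held the family. Of 9 osteoblast genes 7 were lower and 0 higher (median -3.50). Of the 7, Bglap2 (26.1% against 21.4%) and Car3 (8.70% against 6.87%) were read in a larger share of cells that held the family. The others were read in a smaller share. Of 4 marrow stroma genes 2 were lower, the niche chemokine Cxcl12 (0.056 against 65.1 CPM) and Ebf1 (0.056 against 21.3 CPM). Of 4 fibroblast genes 1, the proteoglycan Dcn, was lower at 348 against 2427 CPM. Its reads occurred in 69.6% of cells that held the family and 67.9% of the others. Lists of 4 genes are too few to set these counts apart from the 14.3% of all genes that were lower. No gene of the blood list or the endothelial list reached 20 CPM in either state. Their summed levels on any plate were at most 2.37 and 0.39 CPM in cells that held the family, against at most 44.7 and 4.67 CPM in the other cells.

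No liver gene met the rule in either direction. Of the 16 liver genes 11 had 0 reads in the 23 cells, and the list summed to 0 to 33.955 CPM by plate, against 3.09 to 117.8 CPM in the other cells. Alb, the albumin gene and a defining product of liver cells, had 3 reads in all cells of 2 months, and Apoa1 and Ttr had 0. The only liver gene to reach 20 CPM was the haptoglobin gene Hp, at 3.31 CPM in cells that held the family, against 56.1 CPM in the others, without meeting the rule.

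Of 24 other serpins, 6 reached 20 CPM. Serpinf1, the gene of the antiangiogenic factor PEDF, was lower at 0, 0.50 and 82.3 CPM in cells that held the family, against 698, 291 and 359 CPM in the others. Serping1, the inhibitor of complement C1, and the intracellular serpin Serpinb6a were also lower, at 1.46 against 150.5 CPM and 0.48 against 312 CPM. Serpinh1, the collagen chaperone HSP47, did not meet the rule at 1419 against 1294 CPM, nor did the protease nexin Serpine2 (1081 against 1711 CPM). Of the 6, 3 were thus lower and 0 higher, beside 14.3% and 4.15% of all genes, and 6 genes are too few to set a count of 0 apart from 4.15%.

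The targets and the handling machinery of antitrypsin were also looked up. Of the neutrophil proteases, Elane had 2 reads in all cells of 2 months, and Prtn3 and Ctsg had 0. Of 8 measured chaperones, processing enzymes and receptors, 0 were higher and 0 lower, beside 4.15% and 14.3% of all genes (median log2 fold -0.17). Lman1, the receptor that carries antitrypsin out of the endoplasmic reticulum, was at 134.3 CPM against 197.6 CPM, and Mcfd2, its partner, at 117.8 against 280 CPM. The endoplasmic reticulum chaperone Hspa5 was at 1073 against 1350 CPM and Canx at 366 against 702 CPM. Furin, a processing protease, stood at 83.9 against 11.9 CPM but was lower on 1 plate. Of 9 measured genes of the acute phase and interleukin-6 response, which raises antitrypsin in human liver, 0 were higher and 0 lower (median 0.48). With 8 or 9 genes, counts of 0 cannot be set apart from those shares of all genes. Stat3 was at 259.2 against 245.6 CPM and Socs3 at 1812 against 2395 CPM. The interleukin-6 receptor gene Il6ra had the largest fold of the 9, at 86.1 against 1.45 CPM (log2 fold 3.07). It was read in 17.4% against 3.05% of cells and did not meet the rule, with 0 CPM in both states on plate 1. Of the 9, Hp, Socs3 and Lifr had log2 folds below 0.

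Since 52 cells of 2 months had no Cnmd at 50 CPM, the comparison was repeated within those that had it, 22 that held the family and 80 others. By plate these were 4, 9 and 9 cells against 3, 38 and 39 on plates 1, 3 and 4. The plate 1 values of the other cells, which enter every mean, thus rest on 3 cells. Of 6814 genes, 310 were higher (4.55%) and 562 lower (8.25%), and the median log2 fold of all was 0.23. Of the 292 genes higher before, 71.2% were higher again, and of the 1006 lower before, 36.5%. Of 2282 genes read in at least 25% of the cells of the higher state, 9.16% were higher and 9.03% lower. Notum (1173 against 193.2 CPM), Fxyd2 (653 against 168.1 CPM), Ppp1r1b (1263 against 274.8 CPM), Slc38a3 (675 against 196.2 CPM) and Alg11 (268.6 against 3.29 CPM) remained higher. Chad, Col9a2 and Hapln1 no longer met the rule, and of the 20 cartilage genes 0 were higher and 2, Ucma and Epyc, lower (median -0.18). Col1a1, at 0.41 against 255.9 CPM, and Ibsp, at 120.95 against 4281 CPM, no longer met the rule, while Col1a2, at 208.5 against 2048 CPM, still did. Of the prehypertrophic genes 1 of 10 was higher and 1 lower. Spp1, at 579 against 338 CPM, turned direction without meeting the rule, and Mmp13 and Mef2c, at 0.13 and 24.3 CPM against 108.2 and 122.8 CPM, no longer met it. Of 5 articular genes 1 was higher and 1 lower, since Cilp turned to higher, at 439 against 159.8 CPM, Thbs4 stayed lower, and Cilp2, Erg and Creb5 no longer met the rule. Dcn stayed lower at 375 against 934 CPM. Of 5 osteoblast genes 1 was lower, and Bglap, the osteocalcin gene, stood at 265.8 against 24.2 CPM without meeting the rule. Of the other serpins 0 of 4 were higher or lower, and Canx was lower at 373 against 1276 CPM.

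Likeness across cells was weak. Over the 70 cells of plate 3 and the 69 of plate 4, which share a plate within each set, differ in depth from cell to cell and held the family in 10 and 9 cells, Spearman's rho with the family sum was computed for 2172 genes read in at least 20% of cells of both. The smaller of the 2 values had a median of -0.026 and a 99th percentile of 0.22. Notum led with 0.40 and 0.39, followed by Fxyd2 (0.39 and 0.35), Sox9 (0.34 and 0.37) and Sparc, the gene of the matrix protein osteonectin (0.40 and 0.30). Chadl, which encodes a chondroadherin-like protein, came next at 0.28 and 0.31. The other 10 included Eif4a3, Rab28, Ets1, Dusp1, Ier3ip1, Ppp1r1b, Tspan3, Slc5a3 (a myo-inositol transporter) and Nfkbiz, and the smaller values of the 10 were 0.23 to 0.27. On the 15 cells of plate 1, which chose none of them, rho was 0.21 for Notum, 0.78 for Fxyd2, 0.60 for Sox9, 0.54 for Sparc and 0.92 for Ppp1r1b, and it was below 0 for Eif4a3 and Ets1. On that plate median gene reads were 2607390 in the 4 cells that held the family and 150089 in the 11 others. Cnmd reached 50 CPM in all 4 of the first and in 3 of the others. The part of depth and of cell type in these values was not tested. Of the 15 genes, 7 met the rule for higher level in cells that held the family. Of all 7035 genes 4.15% met it, and 9.29% of the 2141 read in at least 25% of the cells of the higher state. The ranking and the rule used the same cells, so the 7 are no separate support for the calls. Among cells that held the family alone, 0 of the 15 stayed among the first 15. There Notum stood at 0.034, Fxyd2 at 0.0061 and Sox9 at -0.067 by the smaller value.

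**Figure D4:**
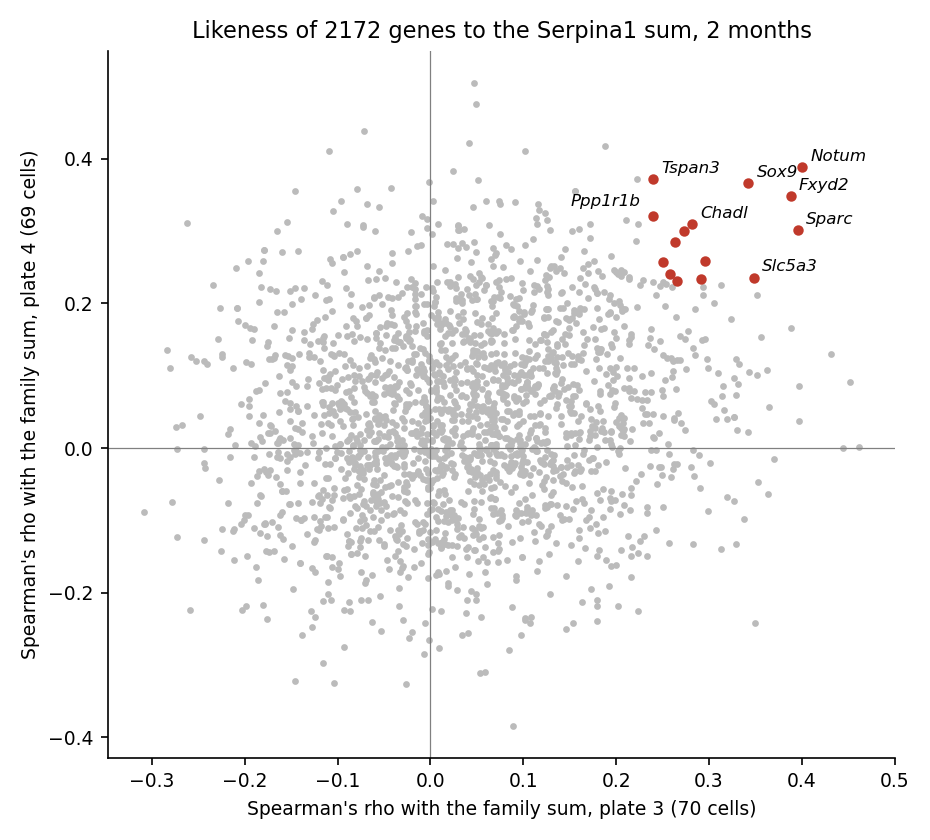
Spearman's rho of each of 2172 genes with the Serpina1 sum over 70 cells of plate 3 (horizontal) and 69 cells of plate 4 (vertical), 1 point per gene, with the 15 genes of highest smaller value in red. Notum, Fxyd2, Sox9 and Sparc, at 0.30 or more on both plates, stand at the upper right edge of a broad cloud centred near 0.

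Several of these genes were also read by age. They were picked by their levels in cells of 2 months, so a higher level at that age is partly built in. Fxyd2 was at 3.79 CPM in 2 of 68 cells at day 3 and at 290.5 CPM at 2 months, where 52 cells had a read, and the 15 cells of 24 months had 0 reads. Ppp1r1b stood at 36.5 CPM at day 3 and 588 CPM at 2 months, and 24-month cells had 0 reads of it. Rspo4 had 0 reads at day 3, 100.7 CPM at 2 months and 0 reads at 24 months. Notum stood at 77.6 CPM at day 3, 309.5 CPM at 2 months and 81.8 CPM at 24 months, the last from 1 cell of plate 5. For 24 against 2 months 1.54% of 8804 genes were higher and 29.6% lower by a rule of 2-fold, 10 CPM and plates that do not overlap, and Fxyd2, Ppp1r1b and Rspo4 were among the lower. For 2 months against day 3, 964 of 9656 genes were higher (9.98%) and 2676 lower (27.7%), and Fxyd2, Ppp1r1b, Rspo4 and Notum were among the higher. The 20 cartilage genes moved with age too, since 15 were lower and 0 higher at 24 months than at 2 months (median log2 fold -5.62), and 5 were higher and 2 lower at 2 months than at day 3 (median 0.17). The part of the number of cartilage cells in the age levels of Fxyd2, Ppp1r1b and Rspo4 was not tested. Of the acute phase genes 4 of 9 were higher and 0 lower at 2 months than at day 3 (median 3.84), and 0 of 10 were higher and 1 lower at 24 months than at 2 months. The other serpins varied among themselves. Serpine2 was higher at 24 months, with 10432, 4609 and 4303 CPM on plates 2, 5 and 12 against 788, 2536 and 1150 CPM on the 2-month plates. Serping1 was also higher at 24 months (3793 against 92.1 CPM) and Serpinh1 lower (345 against 1406 CPM), so of 8 measured serpins 2 were higher and 1 lower. Of 9 at 2 months against day 3, Serpine2 was higher (1491 against 514 CPM), and Serpina3n, Serpinf1 and Serpinb1a were lower.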

How the data were processed

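Single-cell SmartSeq2 libraries of 670 wells were analysed from a table that the authors deposited, which holds expected counts, the estimated reads per gene of RSEM. Per the submitters' processing notes, bcl2fastq 2.18, STAR 2.4 and RSEM 1.2.21 were used with GRCm38.p6, and the annotation release is not given in the sources used here. Of the values above 0, 14.8% were not whole, and all were rounded to whole counts. Each well is 1 cell. The 92 ERCC spike-in rows were kept out of totals, and 1 column with no matching sample was left out.

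Cells passed with at least 1000 genes, 50000 gene reads and less than 20% mitochondrial reads, which left 68 cells at day 3, 15, 70 and 69 on the plates of 2 months and 5 on each plate of 24 months. No doublet caller was run, since each well was sorted as 1 cell. Plate values are sums over passing cells (of a state where states are compared), scaled to CPM. Folds between ages were computed with 1 CPM added to plate means, and folds between states with 10 CPM. With no animal named, an age is 1 sample, so no test was run and genes were called by the size rules given with each count. Cells and members are not replicates, and plates show spread only. Coding sequences and positions came from the GENCODE annotation and genome of GRCm38, and promoters from RefSeq.

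Named genes were the family, the 15 most like it, the 12 highest and 8 lowest folds among genes that 25% or more of the cells of the higher state held, and up to 4 members of a list with the highest CPM. Further list members (such as Lman1, Mcfd2, Furin, Stat3, Il6ra, Cxcl12 and Ebf1) were named after their values were seen. Some genes that these rules name are not reported here. Members, lists and rules were chosen with earlier results of these data known. Alternatives covered the cell filter, the threshold for holding the family, scaling, added CPM, depth and each plate left out, and the restriction to cells with Cnmd was added after seeing the data. Work was done in Python 3.11.15 with numpy 2.4.6, pandas 2.3.3, scipy 1.17.1 and matplotlib 3.10.9, and TMM factors were computed in R 4.3.3 with edgeR 4.0.16.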

Additional observations from a re-analysis of the deposited data

Results flagged for a closer look

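Family reads also occurred in wells below the cell filter, which the comparisons did not use, above the 3 reads that a count of 0 allows. The 24-month well on plate 5 had 4641 reads. At 2 months, wells of plate 3 had 301, 6 and 5 reads, which correspond to 8988, 124.65 and 168.96 CPM, and wells of plate 4 had 10 and 7 reads, at 35.4 and 35.2 CPM. The 3 wells of plate 3 had 2016, 2475 and 2480 genes and fell short on reads, with 33489, 48135 and 29593 gene reads. The wells of plate 4 had 922 and 891 genes. At day 3 no well below the filter had a family read.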

How the results depend on the processing

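No paired analysis was possible because the labels name no animal and no replicate number shared between ages, and no result comes from a test. The log2 fold of the family at 24 months over 2 months, -10.98 with 1 CPM added, was -4.59 with wells of at least 500 genes and -4.58 with no cell filter, both of which take in the 24-month well, and -7.66 with 10 CPM added. Passing cells of 24 months had 0 reads, so the size of this fold depends on the CPM added and no difference is read from it. The fold ran from -11.45 to -9.94 with a plate of 2 months left out. It stayed at -10.98 with a plate of 24 months left out, since all of these had 0 reads. At 2 months over day 3, where day 3 likewise had 0 reads, it was 10.98, and 7.66 with 10 CPM added. With a plate of 2 months left out it was 9.94 to 11.45. At 24 months over day 3 it was 0, with 0 to 0 when a plate was left out, 5.77 with at least 500 genes and 5.69 with no cell filter. With a plate left out, 564 to 760 genes were higher in cells that held the family and 1343 to 2224 lower (2224 without plate 1 and 1523 without plate 4). Fewer plates then had to go the same way and the means changed too, so that 64.4% of the 292 higher and 78.8% of the 1006 lower genes were called again without plate 1. Within cells with Cnmd 562 were lower. Of the 15 genes most like the family, 9 were in the first 15 with cells thinned, 8 within cells with Cnmd and 0 within cells that held the family. TMM scaling moved the median log2 fold of all genes from 0.05 to -0.42 and kept 69.5% of the 292 higher genes, with no others, and gave 1308 lower. Of 75 alternative values, the other 60 stayed within the spread or within 1.5 times the count. The filter of 2000 genes and 200000 reads left 1 cell at 24 months and no cell of plate 1. Depth limits the copies with few reads, above all Serpina1e, and 15 cells limit what could be seen at 24 months.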
